A study of Homo sapiens with 24 samples.

Results

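The CDKN2A, CDKN2B and MTAP genes of chromosome band 9p21 were examined in the deposited peak lists of the PANC-1 cell line, which was established from a pancreatic ductal carcinoma. The members were chosen by gene symbol and by the interval chr9 from 21 to 23 Mb (hg19). No measured value entered this rule, but earlier results of these data were known when it was set. These 3 genes are among 22 protein-coding genes and 10 long non-coding RNA genes with a transcription start site (TSS) in the interval, and among 20098 protein-coding genes on chromosomes 1 to 22 and X. Chromatin immunoprecipitation with sequencing (ChIP-seq) had been performed for H3K4me3, a modification of promoters, for H3K27ac, found at active promoters and at enhancers, and for H3K27me3, set by Polycomb on repressed chromatin. The groups were untreated cells transfected with a control siRNA (siControl), the same transfection followed by 10 ng/ml TGFb for 48 h (siControl+TGFb), and transfection with an siRNA against PHF13 followed by the same TGFb treatment (siPHF13+TGFb). Each group had 2 libraries per modification, 18 in all, and all came from a single cell line with transient transfection. To ask whether every modification is missing across the locus, as a homozygous deletion would give, peaks were listed in the interval and within 5 kb of each annotated TSS.

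CDKN2A encodes p16INK4a, an inhibitor of CDK4 and CDK6, and from a separate promoter ARF, which binds and inhibits the ubiquitin ligase MDM2. CDKN2B encodes p15INK4b, a related inhibitor that TGFb is known to induce in many epithelial cells. MTAP encodes methylthioadenosine phosphorylase, which recycles a by-product of polyamine synthesis back to methionine. Loss of this stretch of 9p21 is a frequent lesion of pancreatic carcinoma and is known for CDKN2A in PANC-1, and MTAP is often lost along with its neighbour. In cells that keep CDKN2A, it is commonly held silent by Polycomb with H3K27me3, or active with H3K4me3.

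Group names are those of the labels. The names of the peaks inside all 6 lists labelled siPHF13+TGFb carry the abbreviation NCT, and those inside the 6 lists labelled siControl+TGFb carry 3AT. The study itself writes NCT for the control siRNA with TGFb, so names and labels conflict, and the direction of any siPHF13 comparison would turn if the treated groups had been exchanged. The lists held 27869 to 39202 H3K4me3 peaks, 6004 to 36104 H3K27ac peaks and 59573 to 165717 H3K27me3 peaks. The library siPHF13+TGFb replicate 1 had the shortest list of every modification, and its 6004 H3K27ac peaks stood beside 32403 in replicate 2. The H3K27ac changes at MTAP and over the interval are given with and without it, as are the median limma changes of H3K4me3 and H3K27me3 with siPHF13. The shares and unadjusted counts of genes with siPHF13 include it. Of 6 epithelial markers, 5 had an H3K4me3 peak in all 6 lists, and KRT7 had one in 3 lists. Of 7 markers of leukocytes, endothelium, hepatocytes and endocrine or acinar pancreas, 0 had an H3K27ac peak and 0 had H3K4me3 in all 6 lists. Among these 7, CD3E had H3K4me3 in 3 lists, PTPRC and INS in 2 each, and the other 4 in 0. The mesenchymal markers VIM and COL1A1 both had H3K4me3 in 6 lists, with H3K27ac in 6 and 5. H3K27me3 was also called in 6 lists at COL1A1 (1488 to 4731 bp) and at the epithelial marker EPCAM (222 to 2197 bp). It was called in 0 lists at VIM and at the other 5 epithelial markers.

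The sequences directly upstream of the members' main start sites are shown because they hold CpG dinucleotides, the feature on which the later comparison with other genes rests. They are 250 bases each, read from GRCh37, which has the chromosome sequences of hg19, 5′ to 3′ on the strand of the gene, with CpG in capitals. MTAP is on the plus strand (chr9:21802385-21802634), and the p16INK4a start of CDKN2A (chr9:21974866-21975115), its ARF start (chr9:21995301-21995550) and CDKN2B (chr9:22009305-22009554) are on the minus strand.
MTAP: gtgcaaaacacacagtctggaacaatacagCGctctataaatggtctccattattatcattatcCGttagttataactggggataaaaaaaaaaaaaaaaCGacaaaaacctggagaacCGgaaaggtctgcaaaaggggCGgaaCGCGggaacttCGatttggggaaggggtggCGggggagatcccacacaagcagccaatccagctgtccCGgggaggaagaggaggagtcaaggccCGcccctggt
CDKN2A, p16INK4a start: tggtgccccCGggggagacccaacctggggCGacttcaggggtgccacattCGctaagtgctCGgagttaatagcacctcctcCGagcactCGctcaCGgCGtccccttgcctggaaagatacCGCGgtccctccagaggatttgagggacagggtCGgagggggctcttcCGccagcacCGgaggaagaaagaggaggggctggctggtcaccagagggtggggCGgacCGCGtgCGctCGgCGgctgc
CDKN2A, ARF start: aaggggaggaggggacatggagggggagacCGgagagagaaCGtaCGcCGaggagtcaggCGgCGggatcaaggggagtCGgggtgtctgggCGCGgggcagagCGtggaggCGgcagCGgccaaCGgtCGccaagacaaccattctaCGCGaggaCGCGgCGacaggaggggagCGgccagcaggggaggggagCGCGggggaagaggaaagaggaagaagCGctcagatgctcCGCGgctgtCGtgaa
CDKN2B: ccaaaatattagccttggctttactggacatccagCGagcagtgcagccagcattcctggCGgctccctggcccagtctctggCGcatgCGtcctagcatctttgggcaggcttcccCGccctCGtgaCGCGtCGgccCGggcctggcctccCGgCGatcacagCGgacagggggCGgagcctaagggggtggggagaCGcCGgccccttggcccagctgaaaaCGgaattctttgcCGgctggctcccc
The MTAP stretch held 11 CpG, the p16INK4a stretch 19, the ARF stretch 26 and the CDKN2B stretch 18, where the median of 20098 protein-coding genes at their most upstream TSS was 14. For the 12508 genes with a CpG-rich TSS, defined below, the median was 20. GGGCGG, the GC box, was searched on both strands and occurred 2 times upstream of MTAP, 1 time at p16INK4a, 0 times at ARF and 2 times at CDKN2B. It occurred in 48.8% of the same windows of all protein-coding genes and in 63.4% of those of CpG-rich genes. The p16INK4a stretch lies in an intron of the longer CDKN2A transcripts, and the CDKN2B stretch in an intron of the antisense gene CDKN2B-AS1. Peaks overlapped the MTAP stretch in 9 of 18 lists and each of the other stretches in 0.

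CDKN2A and CDKN2B had no peak of any modification in any of the 18 lists. Within 5 kb of the 13 annotated TSSs of CDKN2A and the 3 of CDKN2B, H3K4me3, H3K27ac and H3K27me3 peaks covered 0 bp in every library of siControl, siControl+TGFb and siPHF13+TGFb. The p16INK4a start lay 152541 bp from the nearest peak of any list on the side of MTAP and 420713 bp from the nearest on the other side. For the ARF start these distances were 172106 and 400278 bp, and for the main CDKN2B start 186986 and 386274 bp. The nearest H3K27me3 peak to the p16INK4a start was 699970 bp away, so neither the active nor the Polycomb mark was called near it. The stretch around this start without an H3K27me3 peak was 1609.4 kb in siControl replicate 2. In the other lists it was 6360.3 to 29096.3 kb, so the lack of called H3K27me3 reached far beyond the members. CDKN2B-AS1, the long non-coding RNA (ANRIL) that begins beside ARF, likewise had 0 lists with a peak at its 17 TSSs. The lists count peaks, not DNA copies, so a deleted sequence and an intact one without these modifications cannot be told apart by them.

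MTAP did not share this absence at its promoter. Its 8 TSSs between 21802635 and 21803277 had an H3K4me3 peak in 6 of 6 lists and an H3K27ac peak in 5 of 6, the exception being siPHF13+TGFb replicate 1. H3K27me3 was called in 0 of 6, as at 51% of protein-coding genes. The other 5 TSSs of MTAP lie inside the gene, from 21854723 to 21930389, and had 0 peaks in any list. For H3K4me3, the marked and the unmarked TSSs of the gene were thus separated by position and not by condition. How often TSSs inside other genes lack a peak was not counted, so the unmarked TSSs of MTAP have no comparison here.

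The place where peaks ended differed between lists, and the edges given here are those of called peaks. A stretch of 573.3 kb on chromosome 9, from 21822286 to 22395577, held 0 of the 312 peaks of the interval. It contained the whole of CDKN2A, CDKN2B and CDKN2B-AS1 and 85.4% of the length of MTAP. Of the 8 exons of the MTAP transcript MTAP-209, exons 1 to 4 lay below the stretch and exons 5 to 8 within it. The lower edge was set by an H3K4me3 peak of siControl+TGFb replicate 1 in the intron between exons 4 and 5, 216 bp wide with a −log10 q of 2.01. In the other 5 H3K4me3 lists, the last peak before the stretch was the MTAP promoter peak, which ended between 21804363 and 21804887. H3K27ac ended a little further into the gene, between 21812488 and 21813513, in 4 of the 6 lists, all in the intron between exons 1 and 2. In siControl replicate 1 the last H3K27ac peak ended at 21803519, and none followed up to 26892666. The H3K27ac list of siPHF13+TGFb replicate 1 had no peak from 21592409 to 33025349. The upper edge was an H3K27ac peak of siControl+TGFb replicate 1 with a −log10 q of 8.18, 51246 bp before the TSS of DMRTA1, and peaks of 3 other lists (H3K4me3 in siControl+TGFb replicate 2, H3K27ac in siControl+TGFb replicate 2 and siPHF13+TGFb replicate 2) began within 1 kb of it.

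**Figure D1:**
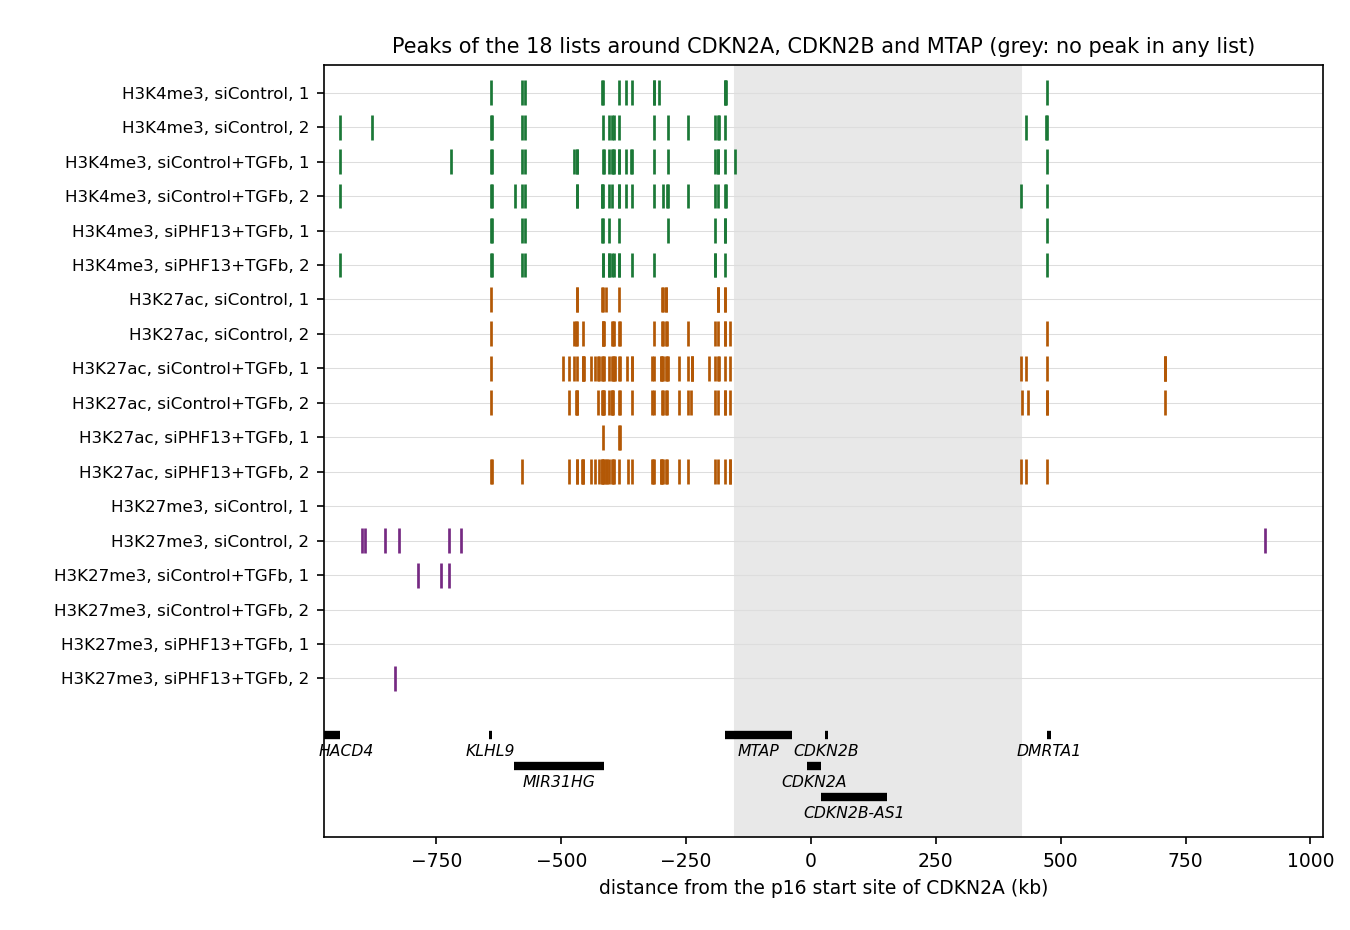
Peaks in the 18 lists (1 row each, numbers are replicates), as ticks at their centres, by distance in kb from the p16INK4a start of CDKN2A, with genes as black bars and the 573.3 kb stretch without a peak in grey. Rows of H3K4me3 stop within MTAP and resume near DMRTA1, as do those of H3K27ac other than replicate 1 of siControl and of siPHF13+TGFb. H3K27ac of siControl replicate 1 does not resume, and that of siPHF13+TGFb replicate 1 stops before MTAP and does not resume. The 11 H3K27me3 peaks fall in 3 of its 6 rows.

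By length alone the stretch was not unusual. Of 3825 stretches of at least 100 kb without a peak in any list and with under 1% unsequenced bases, 316 were longer, the longest being 3365.2 kb on chromosome 13. What such stretches hold differed. The stretches with most protein-coding genes were a keratin-associated protein cluster on chromosome 21 with 33 genes, an olfactory receptor cluster on chromosome 11 with 16 and a taste receptor cluster on chromosome 12 with 16. In these clusters, 0 genes had a CpG-rich TSS without a peak.

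CDKN2A and CDKN2B have CpG-rich TSSs, defined here as at least 55% G+C and a ratio of observed to expected CpG of at least 0.65 in the 1 kb around the TSS. Such promoters carry H3K4me3 in most cell types. Of 20098 protein-coding genes, 1407 (7%) had no peak of any modification in any list within 5 kb of a TSS. Among 12508 genes with a CpG-rich TSS the number was 146 (1.17%), and among 7590 other genes 1261 (16.6%). H3K4me3 was present in all 6 lists at 11797 of the CpG-rich genes (94.3%), MTAP among them, and absent from all 6 at 412. H3K27ac was present in all 6 lists at 29.7% of CpG-rich genes. Of these 412 genes, 258 had H3K27me3 in at least 1 list, 14 had H3K27ac, and 146, CDKN2A and CDKN2B among them, had none of the modifications.

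**Figure D2:**
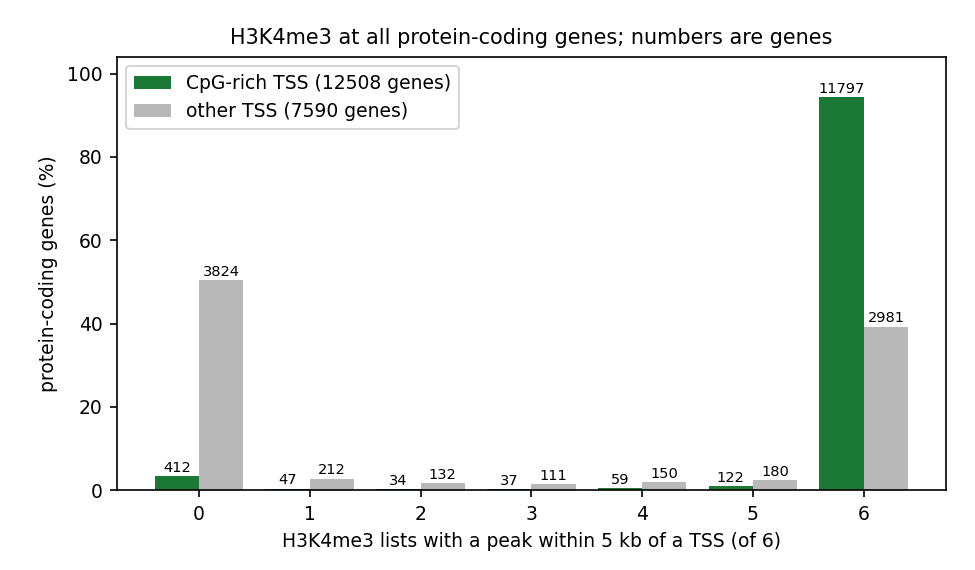
Share of protein-coding genes (y axis, %) by the number of H3K4me3 lists, of 6, with a peak within 5 kb of a TSS (x axis), for CpG-rich and other genes, with the number of genes above each bar. CDKN2A and CDKN2B belong to the 412 CpG-rich genes at 0 lists and MTAP to the 11797 at 6 lists.

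Of the 3825 stretches, 94 held a CpG-rich gene without a peak and 9 held at least 2, of which that of CDKN2A and CDKN2B was the second longest. The longest of the 9, 1521.2 kb from 16872318 to 18393522, was also on chromosome 9 and held ADAMTSL1, CNTLN and SH3GL2. In the lower 47 Mb of chromosome 9, 7 of 131 CpG-rich genes had no peak, namely ADAMTSL1, CDKN2A, CDKN2B, CNTLN, ELAVL2, SH3GL2 and SLC24A2. In the rest of the chromosome it was 1 of 385, TRPM3. These counts describe neighbouring genes of a single cell line, and the place on chromosome 9 was chosen after the values were seen.

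The genes on either side of the members were marked. On the side below MTAP, KLHL9, which encodes an adaptor of a cullin ubiquitin ligase, had H3K4me3 in 6 lists and H3K27ac in 5. HACD4, which encodes a fatty acid elongation enzyme, had H3K4me3 in 4 lists and H3K27ac in 0. MIR31HG, the host transcript of miR-31, had H3K4me3 and H3K27ac in 6 lists each at its TSSs. Further out, FOCAD had H3K4me3 in 6 lists. Above the stretch, DMRTA1, a DMRT family transcription factor gene, had H3K4me3 in 6 lists and H3K27ac in 4, and ELAVL2, a neuronal RNA-binding protein gene beyond the interval, had 0 peaks. The 16 type I interferon genes of the interval, which have no CpG-rich TSS, had no peak in 11 cases, and none of them had peaks in more than 1 list of a modification.

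H3K4me3 at the nearest marked genes was present in each condition. At MTAP, the length under H3K4me3 peaks was 2182 and 2754 bp for siControl, 3132 and 2770 bp for siControl+TGFb, and 2098 and 2590 bp for siPHF13+TGFb. Both siControl+TGFb libraries lay above the other 4, the closest values being 2770 and 2754 bp. The means were 2468 ± 404, 2951 ± 256 and 2344 ± 348 bp (SD, n = 2). The exact two-sided permutation test gave p = 0.333 for siControl+TGFb against siControl and p = 0.333 for siPHF13+TGFb against siControl+TGFb, which is the smallest p that 2 libraries against 2 allow. Higher coverage in both siControl+TGFb libraries than in either siControl library was seen at 47.8% of the genes tested, and lower coverage in both siPHF13+TGFb libraries than in either siControl+TGFb library at 62.6%, so the pattern at MTAP was that of a large part of all genes.

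H3K27ac at MTAP was 639 and 1701 bp long for siControl, 2371 and 1870 bp for siControl+TGFb, and 0 and 2112 bp for siPHF13+TGFb. Without the short list of siPHF13+TGFb replicate 1, the remaining siPHF13+TGFb library lay between the siControl+TGFb libraries. The exact permutation test gave p = 0.333 for siControl+TGFb against siControl (higher in both libraries, as at 58% of genes tested) and p = 0.667 for siPHF13+TGFb against siControl+TGFb.

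DMRTA1 had 1588 and 1678 bp of H3K4me3 for siControl, 1652 and 1875 bp for siControl+TGFb, and 215 and 2100 bp for siPHF13+TGFb. The low value was that of siPHF13+TGFb replicate 1, and the groups overlapped. KLHL9 had 1160 and 1433 bp for siControl, 1819 and 1401 bp for siControl+TGFb, and 1264 and 1592 bp for siPHF13+TGFb, with overlapping groups. At MIR31HG, H3K4me3 around the 5′ TSS covered 1921 to 3537 bp over the 6 libraries and H3K27ac 231 to 3707 bp, the lowest value of each in siPHF13+TGFb replicate 1.

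**Figure D3:**
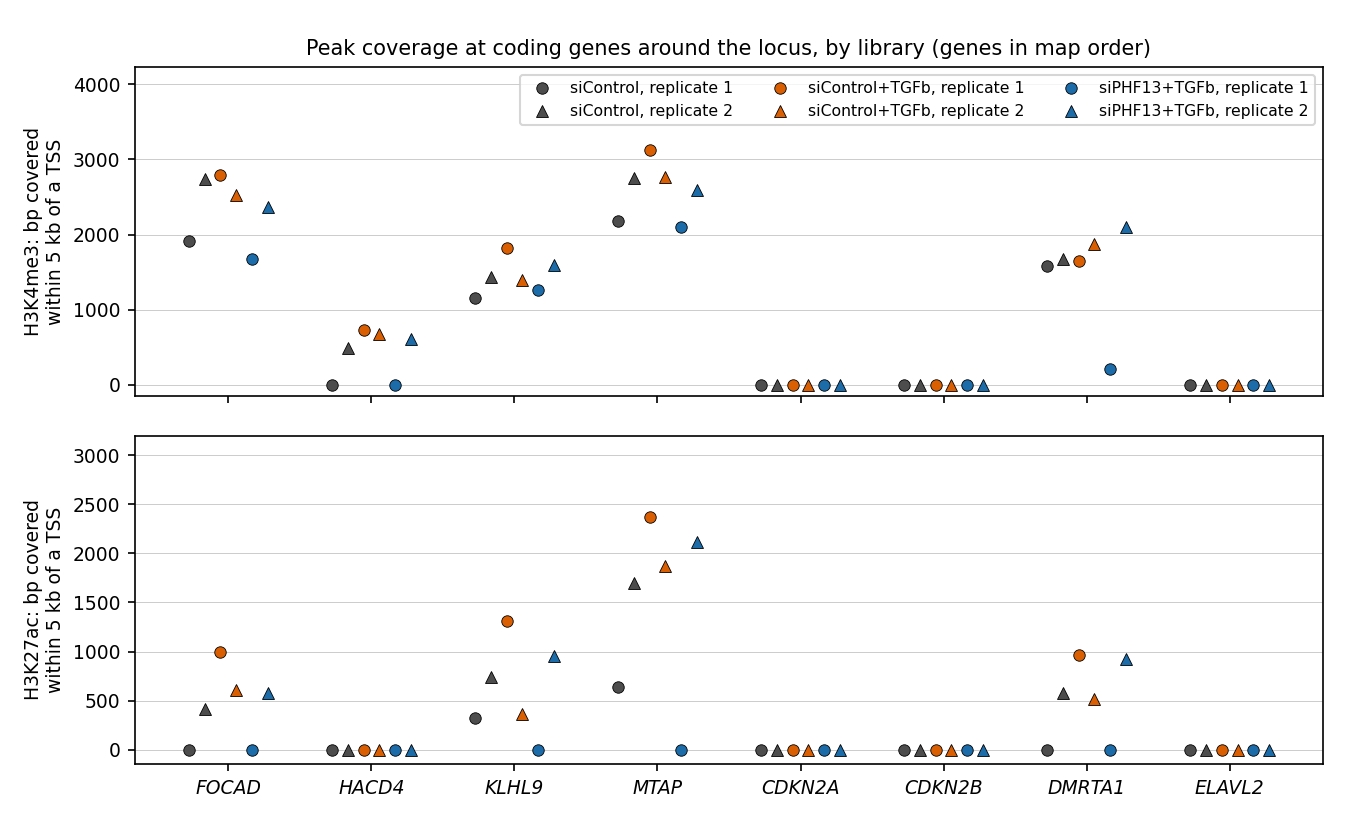
Base pairs covered by H3K4me3 (upper) and H3K27ac (lower) peaks within 5 kb of any TSS, by library (colour: condition, shape: replicate), for protein-coding genes in map order from FOCAD to ELAVL2. CDKN2A and CDKN2B are at 0 bp in all libraries between MTAP, at 2098 to 3132 bp of H3K4me3, and DMRTA1, at 215 to 2100 bp.

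Around all protein-coding TSSs, log2 coverage was tested with limma. After Benjamini-Hochberg adjustment, H3K4me3 was wider with TGFb at 2 of 15320 genes (0.0131%) and narrower at 0, and narrower in siPHF13+TGFb than in siControl+TGFb at 2 (0.0131%) and wider at 0. At an unadjusted p under 0.05, these numbers were 444 (2.9%) wider and 5 (0.0326%) narrower with TGFb, and 1382 (9.02%) narrower and 1 (0.00653%) wider with siPHF13. MTAP was called in neither comparison. Its H3K4me3 log2 change was 0.26 ± 0.17 (SE, adjusted p = 0.866) with TGFb and −0.32 ± 0.17 (adjusted p = 0.401) with siPHF13, where the median of all genes tested was 0.13 and −0.22. Once siPHF13+TGFb replicate 1 was left out, the median H3K4me3 change with siPHF13 was −0.089. For H3K27ac, 0 of 12186 genes passed adjustment in either comparison, with 91 (0.747%) wider with TGFb and 8 (0.0656%) narrower with siPHF13 at an unadjusted p under 0.05. The MTAP log2 change was 0.94 ± 1.54 and −2.23 ± 1.54, with adjusted p = 0.985 and 0.679 by limma. This SE of 1.54 was the same at every named gene in both comparisons, so it is a spread shared over genes and not that of MTAP. The short list of siPHF13+TGFb replicate 1 entered it for the TGFb comparison as well, so the p-values of both comparisons rest partly on that list. The H3K27ac change with siPHF13 rested on replicate 1. It was 0.0037 (adjusted p = 1.00) without that library and −4.46 (adjusted p = 0.00692) without replicate 2 by limma.

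Over the whole interval, the H3K4me3 length was 11069 and 17889 bp for siControl, 22408 and 19071 bp for siControl+TGFb, and 8627 and 16195 bp for siPHF13+TGFb. Both siControl+TGFb libraries lay above the other 4, with p = 0.333 in the exact permutation test for each comparison. The H3K27ac length was 8404 and 16124 bp for siControl, 36579 and 19478 bp for siControl+TGFb, and 1145 and 32541 bp for siPHF13+TGFb. It was higher in both siControl+TGFb libraries than in siControl (exact permutation p = 0.333), while siPHF13+TGFb replicate 1 lay below both siControl+TGFb libraries and replicate 2 between them (exact permutation p = 0.667) and its mean lay above siControl+TGFb once replicate 1 was left out. Most of this coverage lay between MIR31HG and MTAP. In the 232744 bp between the windows at their 5′ ends, it was 6314 and 10185 bp for siControl, 19708 and 11707 bp for siControl+TGFb, and 914 and 17811 bp for siPHF13+TGFb.

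**Figure D4:**
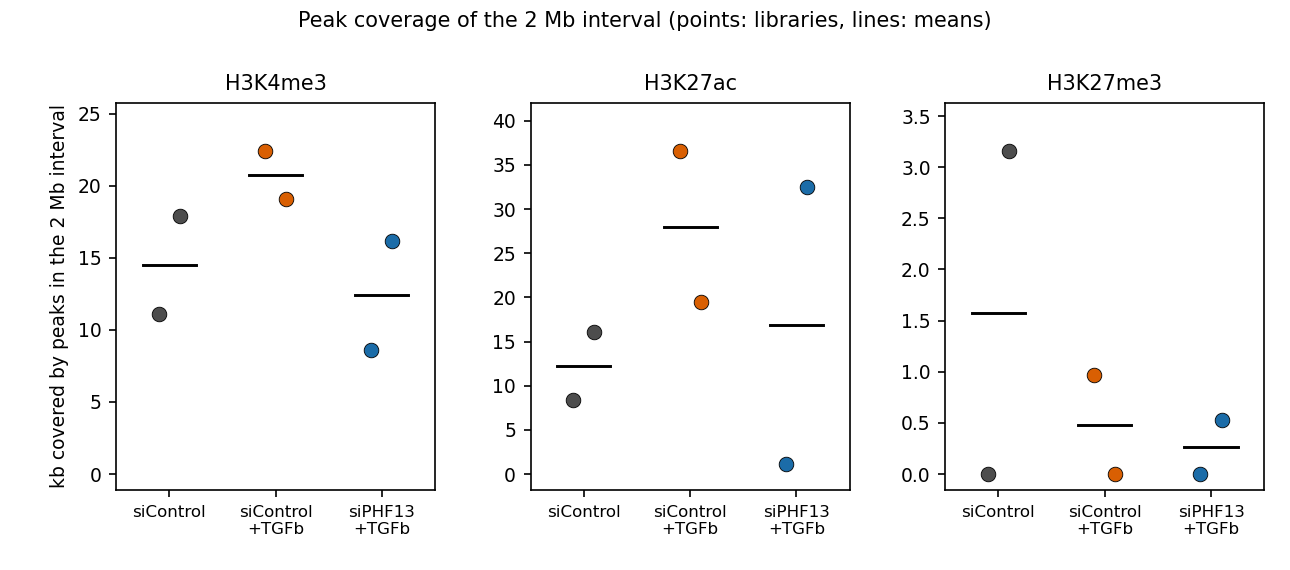
Length covered by peaks (kb) in the 2 Mb interval for each modification, with a point for each library and a line at the mean of the 2 libraries of a group. siControl+TGFb is highest for H3K4me3 in both libraries, and the H3K27ac libraries of siPHF13+TGFb lie at 1145 and 32541 bp.

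Merged over libraries, the interval held 38 H3K4me3 regions, 61 H3K27ac regions and 10 H3K27me3 regions. For H3K4me3, 3 regions had a peak in both siControl+TGFb libraries and in neither siControl library, against 3.64% of all regions, and 0 showed the reverse (0.23%). For H3K27ac these numbers were 9 (7.57% of all regions) and 0 (0.115%). In siPHF13+TGFb, 4 H3K4me3 regions (5.71%) and 2 H3K27ac regions (2.09%) of siControl+TGFb had no peak in either library, and 0 of each were gained (0.152% and 0.0125%). Of the 9 H3K27ac regions gained with TGFb, 7 had a peak in siPHF13+TGFb replicate 2 and 0 in replicate 1. For H3K27me3, 0 regions were gained (1.02% of all regions with TGFb, 0.416% with siPHF13) or lost (2.2% and 3.08%) in either comparison.

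H3K27me3 was nearly missing from the interval. Of its 11 peaks there, 7 were from siControl replicate 2, 3 from siControl+TGFb replicate 1 and 1 from siPHF13+TGFb replicate 2, with −log10 q between 1.16 and 1.91. Of the 11, 10 lay in the interferon cluster below 21274856 and 1 at 22884230, and their sum of 4653 bp over 6 lists compared with a median of 346255 bp over 1270 windows of 2 Mb. At or below it were 120 windows (9.45%), so low H3K27me3 here was shared with about that part of the genome. H3K4me3 in the interval was between the 37.1 and the 50.8 percentile of the windows in each list, and H3K27ac between 67.1 and 81.2, with 573.3 kb of it empty.

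The depth behind these peaks was recovered from the narrow lists. The fold enrichment of a peak is the pile-up of fragments at its summit over a local background, and the p-value is that of a Poisson count at that background. The pair is met by a whole number of fragments, found for 99.6 to 99.9% of peaks in each list. The low end of the background in a list, taken as a quantile close to the minimum, was used as a stand-in for its depth. It ran from 0.229 fragments in H3K27ac siPHF13+TGFb replicate 1 to 1.96 in H3K27ac siControl+TGFb replicate 1. The first of these is the list in which MTAP had no H3K27ac peak. The part of depth in that absence was not tested. At the MTAP promoter, the strongest H3K4me3 peak had 46 and 89 fragments in siControl, 95 and 74 in siControl+TGFb, and 32 and 96 in siPHF13+TGFb, over backgrounds of 6.19 to 24.7. The strongest H3K27ac peak had 23 and 29, 94 and 41, and, in siPHF13+TGFb replicate 2, 85 fragments.

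The local background itself varied across the locus. For H3K27ac, 117 peaks around the MIR31HG promoter, from the IFNE TSS to a boundary before MTAP chosen after the values were seen, had a median background at the 96.7 percentile of their own list. The 61 H3K4me3 peaks of the same zone were at a median percentile of 51.4, but those at the 5′ end of MIR31HG itself were at 99.1 to 99.6 in the 6 lists, so the high background there was not limited to H3K27ac. At the MTAP promoter and up to the stretch, the medians were 80.4 for H3K4me3 and 64.3 for H3K27ac, and above the stretch they were 45.6 and 20.8. Across all peaks of a list, the background followed the length covered by the same modification within 5 kb of the peak (Spearman rho of 0.889 to 0.915 over 27848 to 39127 H3K4me3 peaks and of 0.589 to 0.862 over 5988 to 35978 H3K27ac peaks). With the length covered by the other modification, rho was 0.425 to 0.668 for H3K4me3 backgrounds and 0.129 to 0.459 for H3K27ac backgrounds. At places with a peak of both modifications in cells of the same condition and replicate, the 2 backgrounds correlated at a rho of 0.390 to 0.496 (1822 to 21820 places). These points share a library and its depth. Which reads set the background, and the part of DNA copy number in it, was not tested.

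**Figure D5:**
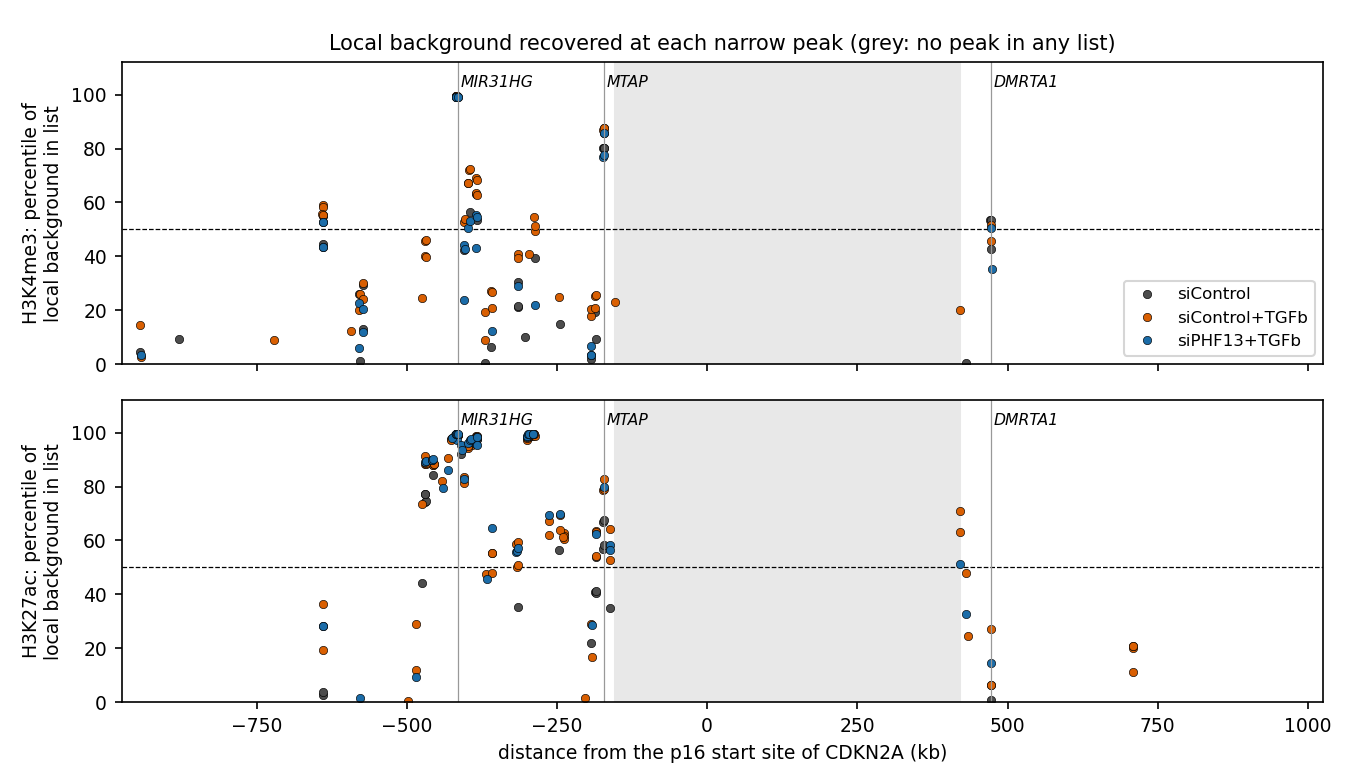
Percentile, within its list, of the local background recovered at each H3K4me3 (upper) and H3K27ac (lower) peak of the interval, by distance in kb from the p16INK4a start of CDKN2A. Colours are conditions, vertical lines mark 5′ ends of genes, grey is the stretch without a peak. Most H3K27ac peaks around MIR31HG lie near the top of their lists, as do the H3K4me3 peaks at its 5′ end, while the other H3K4me3 peaks of the zone are spread.

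Genes listed for the pathways of the members, among them regulators of the locus and TGFb effectors, were marked. Of these 34 genes, 34 had an H3K4me3 peak in all 6 lists (73.5% of all protein-coding genes), 11 had H3K27ac in all 6 (21.8%) and 4 had H3K27me3 in all 6 (23.3%). Among CpG-rich genes these shares were 94.3%, 29.7% and 21.1%. The remaining INK4 inhibitors CDKN2C (p18) and CDKN2D (p19) had H3K4me3 in 6 lists, with H3K27ac in 5 and 6. CDKN1A (p21) and CDKN1B (p27) had H3K4me3 in 6 and H3K27ac in 5 lists. CDKN1C (p57) differed in carrying H3K27me3 in 6 lists, with 3016 to 8140 bp, beside H3K4me3. Among the targets of p16INK4a and p15INK4b, CDK4 and CDK6, the kinases, and RB1, which they phosphorylate, had H3K4me3 in 6 lists. CDK4 also had H3K27me3 within 5 kb of a TSS in 6 lists, with 3066 to 6016 bp, CDK6 had it in 5 and RB1 in 0. CCND2, a cyclin partner of these kinases, had H3K4me3 and H3K27me3 in 6 lists and H3K27ac in 0, with 1783 to 16175 bp of H3K27me3, while CCND1 had H3K27ac in 5 lists. MDM2, the ubiquitin ligase that ARF binds, had H3K4me3 in 6 lists and H3K27ac in 5.

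The genes of methionine salvage that act beside MTAP (MRI1, APIP, ENOPH1, ADI1, and the paralogous phosphorylase PNP) had H3K4me3 in 6 lists and H3K27me3 in 0. PRMT5 and its partners WDR77 and RIOK1, which are known for their dependence on MTAP status, had H3K4me3 in 6 lists. In limma, 0 of 34 pathway genes passed adjustment for H3K4me3 in either comparison, and 0 of 32 tested for H3K27ac and 0 of 7 tested for H3K27me3. At an unadjusted p under 0.05 there were 2 of them, for H3K4me3 with siPHF13. For H3K27me3, 0 of 8161 genes passed adjustment, with 16 (0.196%) wider and 93 (1.14%) narrower with TGFb, and 8 (0.098%) wider and 166 (2.03%) narrower with siPHF13, at an unadjusted p under 0.05. Over all genes tested, the median H3K27me3 change with siPHF13 was −0.95, and 2.7e-15 once siPHF13+TGFb replicate 1 was left out. For the pathway genes, the median log2 change of H3K4me3 was 0.13 with TGFb and −0.20 with siPHF13, beside 0.13 and −0.22 over all genes tested. With TGFb, SMAD7, the feedback inhibitor of the pathway, had 934 and 3527 bp of H3K4me3 in siControl and 3568 and 1908 bp in siControl+TGFb, which overlapped. CDKN1A, like CDKN2B a gene that TGFb can induce, had 2098 and 2202 bp of H3K4me3 in siControl and 2318 and 2194 bp in siControl+TGFb, which overlapped too. H3K27ac at SMAD7 was 513 and 1452 bp in siControl and 6131 and 1985 bp in siControl+TGFb. It was thus higher in both libraries, as at 58% of genes tested. H3K27ac at CDKN1A was 918 and 1597 bp in siControl and 2227 and 1329 bp in siControl+TGFb, which overlapped.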

How the data were processed

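Peaks of H3K4me3, H3K27ac and H3K27me3 from PANC-1 cells were analysed in 18 lists, 2 per group and modification. The 6 input samples were not analysed here. The authors trimmed reads with Trim Galore 0.4.1, aligned them to hg19 with Bowtie2 2.4.1, removed duplicates with Picard and called peaks per library with MACS2 2.2.7.1, with input stated as control. Narrow peaks were deposited for H3K4me3 and H3K27ac and broad peaks for H3K27me3. Each deposited peak has coordinates, a score, a fold enrichment (ratio), and its p-value and q-value as −log10. Coordinates were used for coverage, the −log10 q as a threshold, and fold with −log10 p to recover fragments. The score was not used. The lowest −log10 q was 1.30 in narrow lists, below the threshold stated in the methods of the study, and 1.00 in broad lists. No read totals were used, so depth is known only through the recovered background.

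Genes were taken from GENCODE release 44 on GRCh37; of 24 chromosomes, 0 had a peak beyond the sequence's end. Of 58 listed symbols, 57 matched (not PECAM1). Covered bp were compared by exact two-sided permutation of libraries. Log2(bp + 100) within 5 kb of any TSS, for genes with a mean of at least 200 bp, was fitted with limma 3.58.1 (R 4.3.3; 3 groups per fit, Benjamini-Hochberg, threshold 0.05). Nothing in the labels states separate cultures, so p-values measure the spread between these libraries, which may be technical. Covered length, limma and the recovery of fragments (tolerance 0.001) were tested on simulated data. Intervals were handled in Python 3.11.15 with NumPy 2.4.6. The members and gene lists were chosen with earlier results of these data known. Named genes were the members, other genes of the interval, FOCAD, ELAVL2, a list of 34 pathway genes (1 of them counted but not reported here by name), and the longest and most gene-rich stretches without a peak. CpG-rich genes, the zones along the interval and the genes of chromosome 9 were chosen after values were seen. Alternatives were the peak threshold (−log10 q of 3, or 2 for broad peaks), equal list length, windows of 1 and 10 kb, 200 bp of overlap, 20 to 24 Mb, pseudocounts of 10 and 1000 bp, no filter, median centring, leaving out libraries and a replicate block.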

Additional observations from a re-analysis of the deposited data

How the results depend on the processing

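CDKN2A and CDKN2B had 0 lists with a peak under every alternative tried (stricter threshold, equal list length, windows of 1 and 10 kb, 200 bp of overlap, siPHF13+TGFb replicate 1 left out). None of these settings could have given another result. All but the 10 kb window only remove peaks or narrow the rule, and the nearest peak lay 148181 bp from a CDKN2A TSS. The stretch was 573.3 to 582.1 kb except with lists of equal length (641.5 kb), where MTAP also had H3K27ac in 2 of 6 lists. Values for covered length are differences in mean bp over the interval. With the TGFb groups exchanged, chosen after seeing the data, H3K4me3 with TGFb was −2068 and the siPHF13 comparison 8328.5 for H3K4me3, 11185.5 for H3K27ac and 216.5 for H3K27me3. H3K27me3 was 0 in both comparisons at the stricter threshold and 90 with TGFb at equal list length. Leaving out 1 library gave −2676 to 482 for H3K27me3 with TGFb and −698.5 to 265.5 with siPHF13, and −26883.5 to 4512.5 for H3K27ac with siPHF13, the last without siPHF13+TGFb replicate 1. Genes called by limma for H3K4me3 with TGFb numbered 0 with a pseudocount of 1000 bp, 15 without the filter, 1 after median centring, 5 at the stricter threshold and 0 to 4 on leaving out 1 library. For siPHF13 they were 0 with 1000 bp, 5 with 10 bp, 21 without the filter, 1 centred, 6 at the stricter threshold and 0 to 22 (without siControl replicate 1) on leaving out 1 library. H3K27ac with siPHF13 ranged from 0 to 9990 genes, the last without siPHF13+TGFb replicate 2, which leaves the shortest list alone in its group and assumes that it varies like the other groups. Replicates share numbers but nothing states that they pair. With a replicate block, limma called 0 genes for H3K4me3 in each comparison, and same-numbered libraries correlated at −0.43 to 0.55 for H3K4me3. Log2 changes that turned were, after centring, DMRTA1 (0.54 H3K27ac with siPHF13, −0.020 H3K4me3 with TGFb) and KLHL9 (−0.13 H3K27ac with TGFb, 0.57 H3K27ac and 0.060 H3K4me3 with siPHF13). On leaving out 1 library, changes with siPHF13 ran from −3.01 to 0.35 (DMRTA1 H3K27ac), −2.56 to 0.24 (DMRTA1 H3K4me3), −3.01 to 0.38 (KLHL9 H3K27ac), −0.34 to 0.017 (KLHL9 H3K4me3) and −4.46 to 0.0037 (MTAP H3K27ac), and with TGFb from −0.37 to 1.25 (KLHL9 H3K27ac). Without siPHF13+TGFb replicate 2, MTAP and KLHL9 H3K27ac passed the limma threshold. The cause of these shifts was not tested. With 2 libraries a group, no exact p can fall below 0.333, and peak lists give no depth where no peak was called.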
